A study of Mus musculus with 5 samples.

Results

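The genes described here are 9 genes of antigen presentation on MHC class I: H2-K1, H2-D1 and B2m, which encode the class I molecule itself, Tap1, Tap2 and Tapbp, which load it, Psmb8 and Psmb9, which make its peptides, and Nlrc5, which activates class I genes. DNase I hypersensitive regions of naive CD8+ T cells were taken as members when their summit lay inside one of these gene bodies or within 10 kb of either end, on the mm9 mouse genome. The rule gave 42 peaks, 22 in the WT list and 20 in the dKO list, of 56641 peaks deposited in all (31116 for WT and 25525 for dKO). Because neighbouring windows overlap, one peak can belong to up to 4 of the genes.

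MHC class I molecules show peptides from the cell's own proteins to CD8+ T cells and are present on nearly all nucleated cells, T cells included. Immunoproteasomes cut proteins into peptides, the TAP transporter pumps the peptides into the endoplasmic reticulum, and tapasin, the product of Tapbp, holds the transporter next to empty class I molecules until a peptide binds. The class I genes share promoter elements for NF-kB, for interferon regulatory factors and for an SXY module bound by RFX, CREB and NF-Y proteins, on which the transactivator NLRC5 assembles.

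Mice of both groups carried hCD2-Cre and the Rosa26-GFP reporter. WT mice were Tcf7+/+ Lef1+/+ and dKO mice were Tcf7 fl/fl Lef1 fl/fl, with floxed alleles of the genes that encode Tcf1 and Lef1. hCD2-Cre acts mainly in mature peripheral T cells, and GFP marked the cells in which it had acted. The strains were on the C57BL/6 background, and mice of both sexes were used at 6 to 12 weeks of age. GFP+ TCRbeta+ CD62Lhi CD44lo-med CD8+ cells were sorted from the spleen, digested with DNase I and sequenced as 3 WT and 2 dKO replicates. The authors pooled the replicates before calling peaks, so each value below belongs to 1 pool, the spread between replicates is unknown, and the genotypes could not be compared by a test. The intervals given cover the error of counting fragments only. The deletion of Tcf7 and Lef1 was not checked here, since the lists hold peaks and no RNA.

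The pileup of a peak is the number of fragments that cover its summit. The lists rest on 83923734 WT and 62242963 dKO fragments, and the pileup of the 20626 sites shared by both lists had a median dKO/WT ratio of 0.676. Pileup ratios are therefore given relative to that median, and a site is called higher or lower in dKO when the relative ratio is at least 1.5-fold. Peaks at 4-fold or more over local background, with p below 1e-05 and q below 0.05, were called chromatin accessible (ChrAcc) sites, of which there were 28472 in WT and 24363 in dKO. A percentile is the rank of a site's fold enrichment among the ChrAcc sites of its own list. Markers of the sorted cells were open: 6 of 6 CD8+ T cell genes had a promoter ChrAcc site in WT and 5 of 6 in dKO. The dKO list lacked the site of Cd3d, which in WT had 54 fragments and stood low, at percentile 6.55. The promoter site of the neighbouring Cd3g was shared, with 86 fragments in WT and 54 in dKO. The promoter site of Cd8b1 had 88 fragments in WT and 39 in dKO, 1.53-fold higher in WT relative to the median (interval 1.04 to 2.29). Promoter sites were found for 0 of 5 B cell, 0 of 3 CD4+ T cell and 0 of 2 NK cell genes in either list, and for 1 of 5 myeloid genes, Itgam, in WT alone (pileup 36).

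Promoter windows of these genes except Nlrc5 are shown first, because the accessible windows can be read beside the elements known for class I promoters. For Tapbp only the window near the RefSeq start is shown. Its strongest promoter site, at percentile 66.7 in WT and 83.0 in dKO, lay further upstream. Each line gives the WT summit with 100 bp on either side, 5′ to 3′ on the strand of the gene, from the mm9 genome. Capitals mark matches on either strand to 6 short motifs searched in every site: ATCAAAG, the core bound by Tcf1 and Lef1; GAAA followed after any 2 bases by GAAA, the spacing of interferon regulatory factor sites; GGGGA followed after any 1 base by TCCC, the NF-kB element of class I promoters; CCAAT for NF-Y; TGACG, the core bound by CREB; and TTCNNNGAA for STAT factors.
H2-K1 promoter, chr17:34137226-34137426, minus strand: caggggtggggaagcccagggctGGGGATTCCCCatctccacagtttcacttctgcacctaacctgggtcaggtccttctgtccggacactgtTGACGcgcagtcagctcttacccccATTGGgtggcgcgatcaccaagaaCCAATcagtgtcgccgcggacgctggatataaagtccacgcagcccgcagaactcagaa
H2-D1 promoter, chr17:35399836-35400036, plus strand: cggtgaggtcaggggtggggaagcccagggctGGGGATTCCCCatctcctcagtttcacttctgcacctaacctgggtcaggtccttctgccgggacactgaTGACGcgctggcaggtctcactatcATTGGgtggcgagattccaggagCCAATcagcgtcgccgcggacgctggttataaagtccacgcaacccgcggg
B2m promoter, chr2:121973245-121973445, plus strand: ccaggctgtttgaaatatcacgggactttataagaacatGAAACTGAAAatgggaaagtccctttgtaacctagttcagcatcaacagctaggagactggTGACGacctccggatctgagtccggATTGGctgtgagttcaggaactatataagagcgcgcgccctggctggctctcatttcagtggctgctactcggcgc
Psmb9 and Tap1 shared promoter, chr17:34324225-34324425, minus strand: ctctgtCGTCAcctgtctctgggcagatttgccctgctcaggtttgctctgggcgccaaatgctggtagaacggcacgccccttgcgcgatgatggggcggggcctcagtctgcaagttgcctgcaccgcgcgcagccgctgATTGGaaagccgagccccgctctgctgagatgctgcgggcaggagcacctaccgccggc
Tap2 promoter, chr17:34341373-34341573, plus strand: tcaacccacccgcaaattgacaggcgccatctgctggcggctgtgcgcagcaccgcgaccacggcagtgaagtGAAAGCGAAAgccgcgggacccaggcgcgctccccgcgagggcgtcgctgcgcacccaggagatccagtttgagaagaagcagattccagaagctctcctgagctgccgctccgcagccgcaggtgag
Psmb8 upstream start, chr17:34334515-34334715, plus strand: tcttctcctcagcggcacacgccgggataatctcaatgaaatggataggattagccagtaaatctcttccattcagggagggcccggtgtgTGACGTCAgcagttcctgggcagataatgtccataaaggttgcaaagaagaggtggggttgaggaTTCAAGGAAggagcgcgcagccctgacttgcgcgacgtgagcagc
Psmb8 downstream start, chr17:34335171-34335371, plus strand: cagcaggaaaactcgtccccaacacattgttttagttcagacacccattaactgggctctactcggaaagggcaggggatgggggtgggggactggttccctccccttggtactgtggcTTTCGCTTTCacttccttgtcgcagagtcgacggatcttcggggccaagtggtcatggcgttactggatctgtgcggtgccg
Tapbp downstream start, chr17:34056437-34056637, plus strand: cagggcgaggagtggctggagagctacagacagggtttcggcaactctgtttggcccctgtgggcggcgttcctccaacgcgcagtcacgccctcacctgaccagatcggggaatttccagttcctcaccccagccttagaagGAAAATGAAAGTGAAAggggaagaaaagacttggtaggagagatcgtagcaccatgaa

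In the H2-K1 and H2-D1 windows the NF-kB element, the TGACG core and an inverted and a direct CCAAT stood in the same order toward the start. The H2-D1 window aligned to the H2-K1 promoter with 90.4% identity over 97.5% of its length. The search from the H2-K1 window found 0 copies elsewhere at 90% identity or more over at least 80% of the window. How well the alignment told fragments of the 2 promoters apart was not tested. The NF-kB element was present in 2 of the 22 WT and 2 of the 19 dKO member sites, in both lists at H2-K1 and H2-D1, against 0.270% of all WT and 0.324% of all dKO sites. It is nearly its own reverse complement, so each of these elements matched on both strands as 1 site. The interferon spacing stood in 4 of 22 and 4 of 19 member sites, at B2m, Tap2, Tapbp and the downstream start of Psmb8, against 3.55% and 3.69% of all sites. Only this exact spacing was searched. A window without a match, such as those of H2-K1 and H2-D1, can still hold another form of the interferon element. CCAAT was found in 7 of 22 and 7 of 19 sites (24.8% and 26.4% of all sites). TGACG was found in 7 of 22 and 5 of 19 (19.6% and 20.5%). Of the 25 member places 16 lay within 1 kb of a start, where both motifs are more frequent. Over all such sites CCAAT was found in 32.28% of WT and 33.98% of dKO sites, and TGACG in 29.45% and 30.17%. Member shares were 31.82% and 36.84% for CCAAT and 31.82% and 26.32% for TGACG, so neither was clearly enriched. The STAT spacing occurred in 1 of 22 WT sites, at the upstream start of Psmb8, and in 0 of 19 dKO sites (5.83% and 5.66% of all sites). ATCAAAG was found in 0 of 22 WT and 0 of 19 dKO member windows, against 3.81% and 2.42% of all sites. Among all sites within 1 kb of a start its shares were 1.802% and 1.583%, so its absence from so few windows carries little weight. These matches describe letters in the windows, not binding.

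All 22 WT peaks and 19 of the 20 dKO peaks at the 9 genes met the criteria for a ChrAcc site, the exception being a dKO peak at the upstream start of Psmb8. Together they formed 25 places in the genome, of which 16 were open in both lists, 6 in WT only and 3 in dKO only. In all, 6 of 22 WT sites had no dKO counterpart, where 27.6% of all WT ChrAcc sites had none, and 3 of 19 dKO sites had no WT counterpart, where 14.4% of all dKO sites had none. Both shares were close to those of the whole lists. Of the 16 places within 1 kb of an annotated start, 13 were shared. There the whole-list shares are 16.5% for WT sites and 5.07% for dKO sites, and the one-list sites were those at Rgl2 and Psmb8 in WT and at Cpne2 in dKO. Summits of shared sites lay within 50 bp of each other at 15 of 16 places, and at most 129 bp apart.

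Member sites were of middling strength in both lists. The WT sites had a median percentile of 38.2 and the dKO sites one of 40.9, and 11 of the 16 shared sites ranked higher in dKO while 5 ranked higher in WT. Over all shared sites 41.5% ranked higher in dKO by this measure. Ranked by pileup, the split of the member sites was 8 and 8, where 36.1% of all shared sites ranked higher in dKO. The median width was 175.5 bp in WT, where all ChrAcc sites had 207 bp, and 159 bp in dKO, where all had 191 bp. The GC content of these windows had a median of 57.2% in WT and 55.7% in dKO, against 53.2% over all sites of either list.

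**Figure D1:**
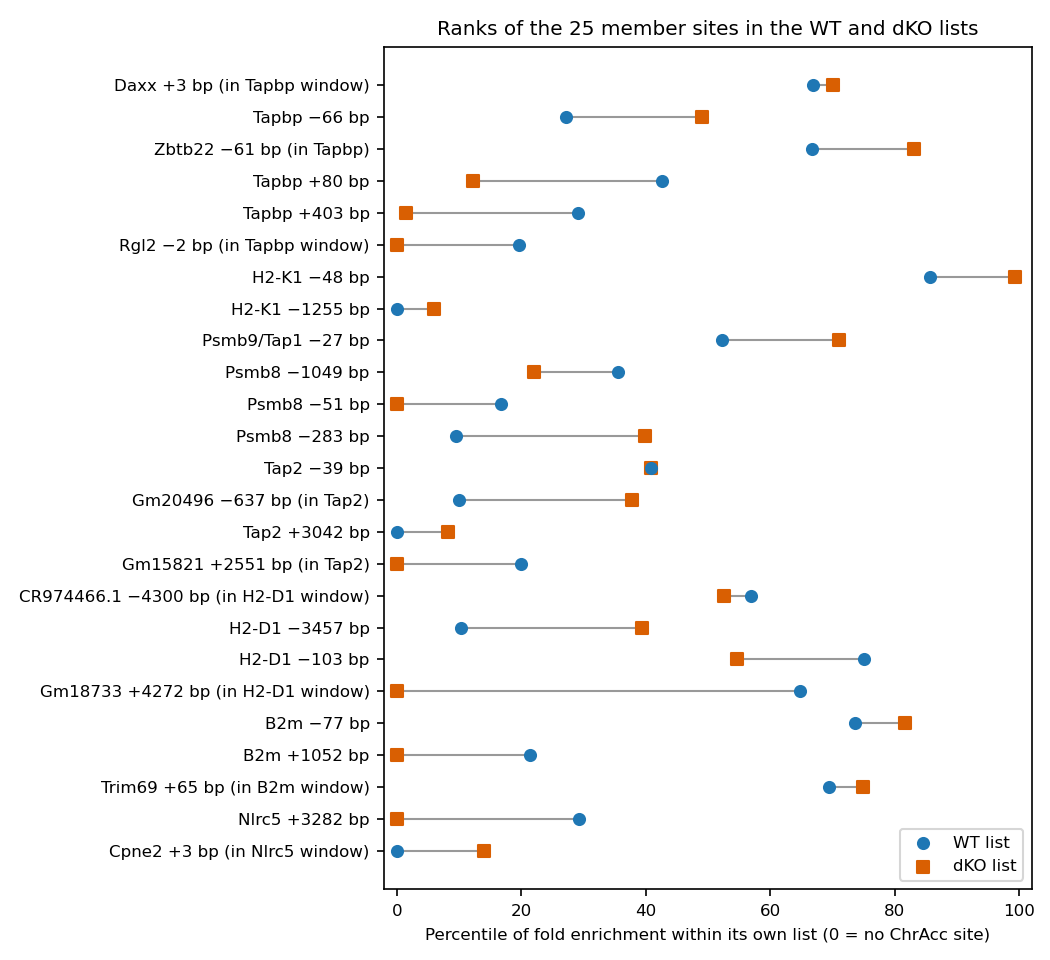
Percentile of fold enrichment (x axis, 0 to 100) of the 25 member sites in the WT list (circles) and the dKO list (squares), in genome order within each chromosome. Sites are named by the nearest annotated start and the distance of the summit from it in bp, and a point at 0 means that the list held no ChrAcc site there. The H2-K1 promoter ranked highest in both lists, at 85.7 in WT and 99.4 in dKO.

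Among the shared sites, 2 of 16 were higher in dKO, at H2-K1 and upstream of H2-D1, where 7.49% of all shared sites were. Another 2 of 16 were lower, both in Tapbp, where 5.11% of all shared sites were. At 2-fold, 1 of 16 was higher (1.68% of all shared sites) and 0 of 16 were lower (0.756%). The median relative log2 ratio was 0.13 over the 16 sites and 0.05 without H2-K1. Apart from H2-K1 the ratios ran from -0.69 to 0.74 on the log2 scale, close to the central 90% of all shared sites, which spans -0.59 to 0.69. H2-K1 was the single member site far outside that span.

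**Figure D2:**
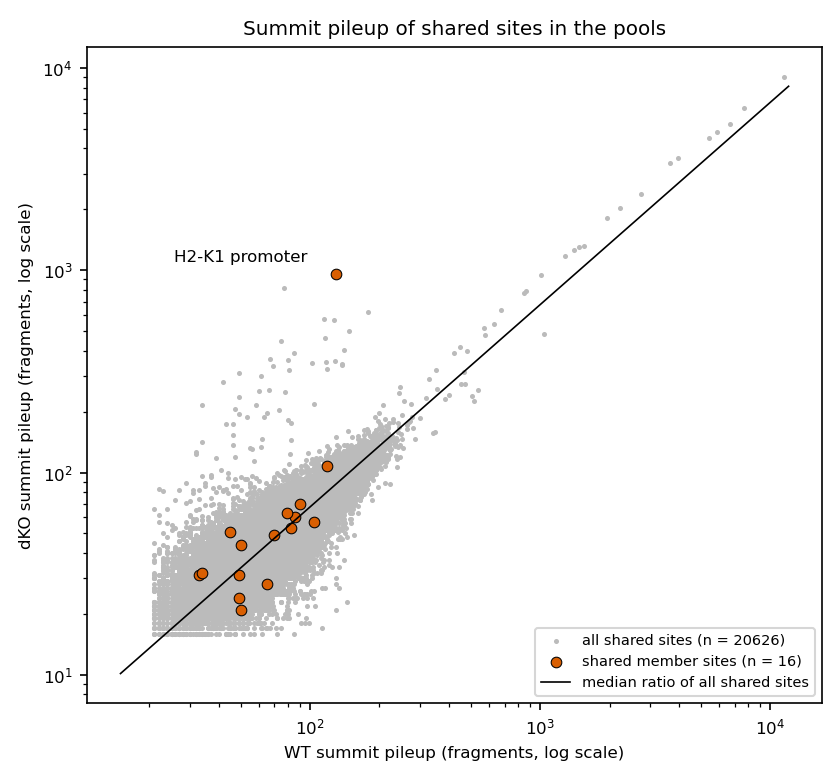
Summit pileup in WT (x axis) and dKO (y axis), in fragments on log scales, for all 20626 shared sites (grey) and the 16 shared member sites (orange). The line is the median ratio of 0.676. The member sites lay in the main cloud around the line except the H2-K1 promoter, with 130 fragments in WT and 953 in dKO.

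H2-K1 encodes the heavy chain of the class I molecule H2-K, which binds the peptide. The gene (ENSMUSG00000061232.8) lies at chr17:34132962-34137278 on the minus strand, in the MHC locus. In WT it had 1 ChrAcc site, at chr17:34137173-34137623, with its summit 48 bp upstream of the annotated start and the first bases of the gene inside the peak. The pileup there was 130 in WT and 953 in dKO, and the summits were 2 bp apart. The same position was thus the point of highest pileup in both pools. Relative to the median of shared sites the dKO pileup was 10.8-fold higher, with a 95% exact interval of 9.01 to 13.1, or 3.44 on the log2 scale. Of 20626 shared sites only 1 had a higher ratio. In WT, 2146 ChrAcc sites had a higher pileup than the H2-K1 promoter, and in dKO 14 had.

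The dKO peak was also broader. It covered chr17:34137227-34138066, 840 bp, 1.86 times the width of the WT peak, and 99.9% of dKO ChrAcc sites were narrower. Its far end reached upstream of the start, while the side within the gene ended 51 bp past the start. A further dKO-only site followed at chr17:34138183-34139204, 1022 bp wide, with a pileup of 202 and its summit 1255 bp upstream of the start. No WT peak met the criteria there. At the median ratio a WT site would have had a pileup of 299, and the weakest WT ChrAcc site had 21. The adjoining promoter peak, however, had a raw dKO/WT pileup ratio of 7.33, so the median ratio gives no estimate for this stretch. Whether WT had a signal here below the criteria was not tested. The 2 dKO peaks together spanned 1978 bp with a gap of 116 bp, from 1926 bp upstream to 51 bp downstream of the H2-K1 start. The summit window of the second site is shown because its sequence recurs in the class I region.
H2-K1 upstream dKO-only site, chr17:34138433-34138633, minus strand: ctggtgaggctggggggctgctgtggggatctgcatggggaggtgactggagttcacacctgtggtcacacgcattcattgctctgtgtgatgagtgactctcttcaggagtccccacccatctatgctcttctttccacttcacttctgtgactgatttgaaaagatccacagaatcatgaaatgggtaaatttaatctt
It matched 4 other places on chromosome 17 with 91.2% to 93.6% identity, starting at positions 35515185, 35529483, 35560235 and 35574585, among the H2-Q genes. Fragments that fit several of these places equally well would have been removed by the filter on mapping quality.

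The local background at H2-K1 was higher in dKO as well. This background, in fragments, is implied by the pileup and the fold enrichment, and the peak caller estimates it over 10 kb or from the whole genome, whichever is larger. At the H2-K1 promoter it was 8.50 in WT and 43.8 in dKO, a dKO/WT ratio of 5.16, while the median ratio over shared sites was 0.685 and 0 shared sites had a higher one. The other dKO member peaks away from H2-K1 had backgrounds of 3.22 to 7.61. The 10 kb includes the peaks themselves, so background and pileup are not independent there. With fold enrichment in place of pileup the dKO/WT log2 ratio at the H2-K1 promoter was 0.70, still more than 1.5-fold. The second dKO site had a fold enrichment of 4.53, at percentile 6.04, although its pileup was above that of 99.7% of dKO sites.

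The 1 shared site with a higher ratio lay in the immunoglobulin heavy-chain locus at chr12:114665537-114667032, over the J segment Gm16734 and 4596 bp from Ighm. Its pileup was 77 in WT and 816 in dKO, 15.7-fold higher relative to the median, and its background was 7.01 in WT and 29.8 in dKO. It too was broad, at 1496 bp. The 15 shared sites with the highest ratios also held sites on the Y chromosome and sites near starts of Aldoa, a glycolytic enzyme gene. Mice of both sexes were used, and the sex mix of each pool is not known here. The 15 were picked by pileup ratio, from which the background is not independent, so their backgrounds are no separate result. Pileup counts fragments, so more copies of a DNA stretch and more cutting per copy cannot be told apart in these lists. The study carried a P14 TCR transgene on these genotypes for its cell transfers, and some TCR transgenes are built with an H2-K promoter and an immunoglobulin heavy-chain enhancer. The labels of these DNase-seq samples name no transgene, and whether such DNA was in the dKO pool was not tested. The 10.8-fold value is therefore a ratio of fragments and not a measure of how open the endogenous promoter was. Since the dKO list is 1 pool it cannot show whether 1 or both replicates carried the excess.

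**Figure D3:**
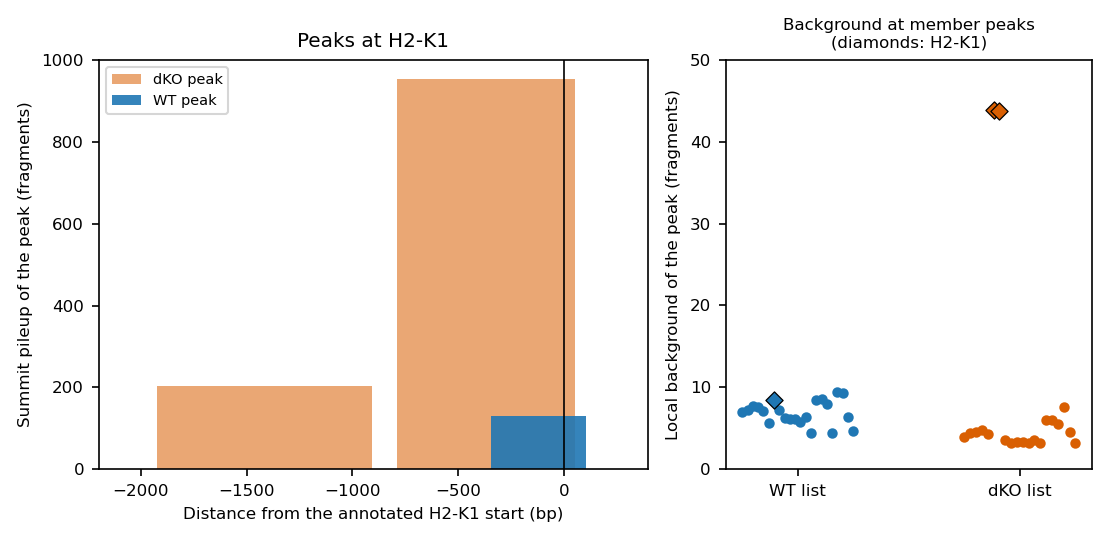
Left, peaks at H2-K1 by distance from the annotated start in bp (negative is upstream), each drawn over its width with its summit pileup in fragments as height, so that the shape inside a peak is not shown. Right, local background in fragments of every member peak in the WT and dKO lists, with the H2-K1 peaks as diamonds at 8.50 in WT and at about 43.8 in dKO.

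H2-D1 encodes the H2-D heavy chain, the other classical class I molecule of C57BL/6 mice. The gene (ENSMUSG00000073411.4) lies at chr17:35399675-35404444 on the plus strand and had 4 WT and 3 dKO sites. Its promoter site, at chr17:35399637-35400084 in WT, had a pileup of 104 in WT and 57 in dKO, and its summit lay 103 bp upstream of the RefSeq start. Relative to the median this was 0.81-fold, with an interval of 0.58 to 1.13, and the percentile was 75.1 in WT and 54.7 in dKO. The H2-D1 promoter thus showed no excess of the H2-K1 kind in dKO, with an upper bound of 1.13.

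A pair of sites upstream of H2-D1 was shared. The distal one, at chr17:35395232-35395393, had a pileup of 86 in WT and 60 in dKO, a relative ratio of 1.03 (0.73 to 1.45). The nearer one, at chr17:35396142-35396267 with its summit 3457 bp upstream of H2-D1, had 45 in WT and 51 in dKO, 1.68-fold higher in dKO with an interval of 1.10 to 2.56. It stood at percentile 10.4 in WT and 39.4 in dKO, weak in the one and middling in the other. Downstream of the gene, at chr17:35411769-35411939, lay the WT-only site that ranked highest of the 6 by fold enrichment, at 10.2 and percentile 64.8, with a pileup of 54. At the median ratio it would have had 36.5 fragments in dKO, more than the 16 of the weakest dKO ChrAcc site, and 14.2% of WT sites in its decile of fold enrichment had no dKO counterpart.

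B2m encodes β2-microglobulin, the light chain needed by every classical class I molecule to reach the surface. The gene (ENSMUSG00000060802.8) lies at chr2:121973422-121978819 on the plus strand, inside an intron of the annotated Patl2. The B2m promoter site, at chr2:121973147-121973495 in WT, had a pileup of 119 in WT and 108 in dKO and ranked at percentile 73.6 and 81.7. Its relative ratio was 1.34 with an interval of 1.02 to 1.76, so it lay above the median by more than counting error but below 1.5-fold. A WT-only site in intron 1, 1052 bp past the start at chr2:121974348-121974527, had a pileup of 58 and percentile 21.5. At the median ratio 39.2 fragments would have been found in dKO, and 41.8% of WT sites in its decile were without a dKO counterpart. The remaining site of the window is the start of the neighbouring Trim69, with 79 fragments in WT and 63 in dKO (1.18-fold, 0.83 to 1.66).

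Psmb9 and Tap1 are read in opposite directions from a common promoter. Psmb9 encodes a catalytic immunoproteasome subunit and lies at chr17:34318932-34324709 on the minus strand, as 2 annotation entries merged here (one is ENSMUSG00000024337.8), and Tap1 (ENSMUSG00000037321.9), one chain of the peptide transporter, lies at chr17:34324498-34334170 on the plus strand. The shared site covered 555 bp at chr17:34324205-34324759 in WT, the widest WT member site, with its summit in the exon of Psmb9 that holds the 5′ UTR. Its pileup was 70 in WT and 49 in dKO, 1.03-fold relative to the median with an interval of 0.70 to 1.51. The percentile was 52.3 in WT and 71.1 in dKO. A second shared site lay in a coding exon near the 3′ end of Tap1, at chr17:34333530-34333685, with 49 fragments in WT and 24 in dKO (0.72-fold, 0.42 to 1.2).

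Psmb8 (ENSMUSG00000024338.8, chr17:34334666-34338399, plus strand) encodes another catalytic immunoproteasome subunit and has several annotated starts, with a site at both the upstream one and the one RefSeq gives. At the upstream start, chr17:34334582-34334763, the WT pileup was 37, at percentile 16.8. The dKO list held a peak at the same place with a pileup of 15 and a fold enrichment of 3.71, below the minimum of 4, so the site counts as WT-only by a narrow margin. At the downstream start, chr17:34335219-34335317, 131 bp past the RefSeq start and in the exon with the 5′ UTR, the pileup was 33 in WT and 31 in dKO. That was 1.39-fold relative to the median with an interval of 0.82 to 2.34, and the percentile was 9.51 in WT and 39.9 in dKO. The stronger of the Psmb8 start sites was the upstream one in WT and the downstream one in dKO, by small counts in both.

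Tap2 (ENSMUSG00000024339.6, chr17:34340472-34353266, plus strand) encodes the second chain of the transporter. Its promoter site, at chr17:34341326-34341512 in WT, had 49 fragments in WT and 31 in dKO and stood at percentile 40.9 in both lists. The relative ratio was 0.94 with an interval of 0.58 to 1.5. Of the sites inside the gene, the one in intron 3, at chr17:34342943-34343071, had 34 fragments in WT and 32 in dKO (1.39-fold, 0.83 to 2.32). A site in intron 5, at chr17:34347630-34347751, was in dKO only with a pileup of 19, and a site in a coding exon, at chr17:34348804-34348984, was in WT only with a pileup of 29. Both were near the weakest ChrAcc sites of their lists, with 16 fragments in dKO and 21 in WT.

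Tapbp (ENSMUSG00000024308.7, chr17:34052844-34066235, plus strand) encodes tapasin. It has several annotated starts, with sites near 3 of them. Upstream, at chr17:34052714-34052813 and 66 bp before the first start, the pileup was 50 in WT and 44 in dKO, 1.30-fold with an interval of 0.85 to 1.99. Next to it, at chr17:34052995-34053143, a site in an intron of Tapbp and 61 bp upstream of Zbtb22 had 90 in WT and 70 in dKO (1.15-fold, 0.83 to 1.59). Neither site was past 1.5-fold, and the start that RefSeq gives for Tapbp lies further down.

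At that downstream start, chr17:34056486-34056635 with the summit 114 bp past the RefSeq start, the pileup was 65 in WT and 28 in dKO. The WT value was 1.57-fold higher relative to the median, with an interval of 0.99 to 2.54. In intron 3, at chr17:34057807-34057940, it was 50 in WT and 21 in dKO, 1.61-fold higher in WT with an interval of 0.95 to 2.82. These are the 2 member sites called lower in dKO, and both intervals reach equal levels. With fold enrichment in place of pileup neither passed 1.5-fold. The downstream start stood at percentile 42.6 in WT and 12.2 in dKO, and the intron site at 29.2 and 1.54. The other sites in the Tapbp window belong to neighbours: the Daxx and BC051226 start had 83 fragments in WT and 53 in dKO (0.94-fold, 0.66 to 1.35), and the Rgl2 start was WT-only with 36 fragments.

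**Figure D4:**
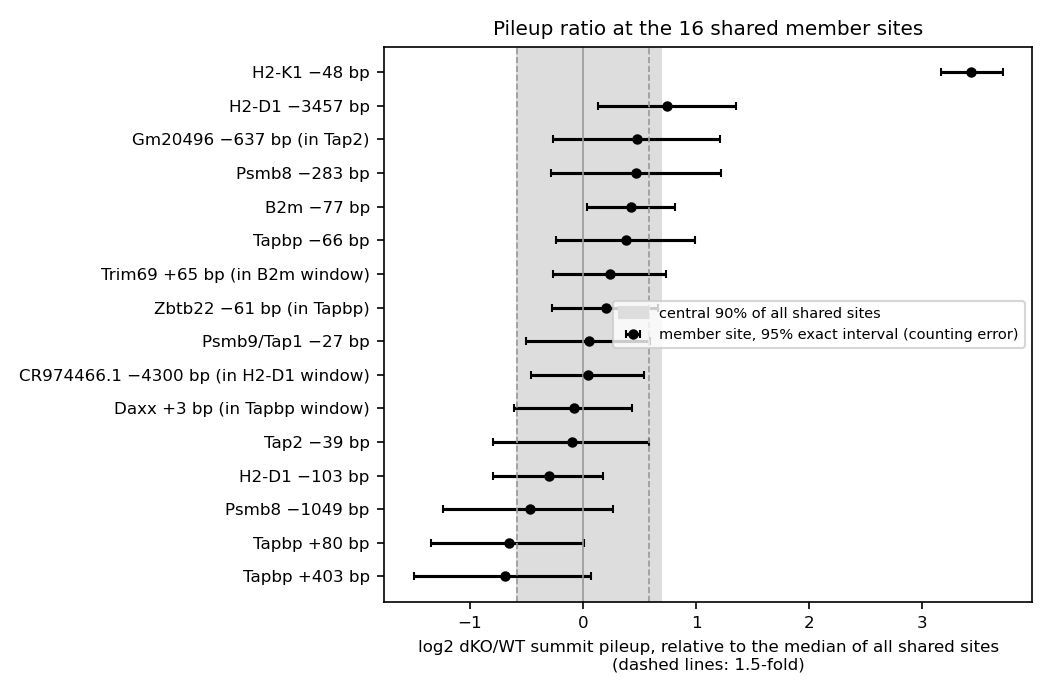
log2 of the dKO/WT summit pileup at the 16 shared member sites, relative to the median of all shared sites (0 on the x axis), with 95% exact intervals that cover counting error only. The grey band is the central 90% of all shared sites, -0.59 to 0.69, and dashed lines mark 1.5-fold. The H2-K1 promoter stood at 3.44, the site 3457 bp upstream of H2-D1 at 0.74 and the downstream start and intron 3 of Tapbp at -0.65 and -0.69.

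Nlrc5 encodes the class I transactivator. The annotation used here gives it (ENSMUSG00000074151.5) as a lincRNA at chr8:96996663-97051172 on the plus strand, 54510 bp long, while the RefSeq gene measures 92938 bp. The RefSeq start was not matched to mm9. If the extra length lies upstream, the window did not reach the promoter of the longer gene. Within the window there was 1 WT-only site about 1 kb past the end of the gene, at chr8:97052185-97052305, with 35 fragments and percentile 29.3. The 1 dKO-only site stood at chr8:97056833-97056943 on the start of the neighbour Cpne2, with 21 fragments and percentile 14.1. No site of Nlrc5 itself was shared.

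The region upstream of the annotated Nlrc5 was therefore read as well, outside the rule and after the values of the window had been seen. A shared site at chr8:96958056-96958362 lay 38455 bp upstream of the annotated start and 26 bp from the start of 9330175E14Rik. RefSeq exceeds the annotated length by 38428 bp, which would place a start there only if all of it lay upstream. Its pileup was 121 in WT and 58 in dKO, at percentiles 92.1 and 77.4. The relative ratio was 0.709 with an interval of 0.509 to 0.977, lower in dKO but by less than 1.5-fold. Its WT window held 1 match to the interferon spacing. A site at chr8:96977828-96978490, between the neighbour and the annotated Nlrc5, had 46 fragments in WT and 24 in dKO (0.771-fold, 0.450 to 1.29).

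Other genes of the pathway were read at their strongest promoter site within 1 kb of a start. Of 31 genes in 4 lists, 30 had a promoter site in both lists and 1, the class Ib gene H2-Q6, had one in WT only (58 fragments, percentile 43.4). The strongest sites of the lists overlapped at 28 of the 30 genes, and at Erap1 and Nfkb1 they did not. Where they overlapped, 0 were at least 1.5-fold higher in dKO and 1 was lower, while among all shared sites within 1 kb of a start 2.63% were higher and 4.64% lower. The lower one was Pdia3, the disulfide isomerase ERp57 of the loading complex, with 92 fragments in WT and 38 in dKO, 1.64-fold higher in WT with an interval of 1.11 to 2.46. The median relative log2 ratio of these genes was -0.13. Promoter sites in general also lay below the reference: before scaling, the median log2 dKO/WT ratio was -0.63 at shared promoter sites and -0.56 at all shared sites.

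By group, 5 of 5 other loading and trimming genes had a promoter site in both lists, and the chaperone genes Calr (141 fragments in WT and 110 in dKO) and Canx (136 and 95) were among them. The proteasome genes had one in both lists in 6 of 6, with Psmb10, the remaining immunoproteasome subunit, at 51 fragments in WT and 27 in dKO, and with the constitutive Psmb6 at percentile 99.8 in WT and 99.3 in dKO. So did 12 of 12 regulator genes, among them Rfx5 with 143 fragments in WT and 97 in dKO, a relative log2 ratio of 0.00, and Irf1 with 94 and 66. Of the 8 class Ib and class I-like genes 7 did. H2-Q4 had 98 fragments in WT and 46 in dKO, a relative log2 ratio of -0.53 with an interval of -1.07 to -0.01, and H2-T23 had 63 and 58, a ratio of 0.44 with an interval of -0.10 to 0.98. None of these class I-like promoters carried an excess of the H2-K1 kind. The class II genes, which serve presentation to CD4+ T cells, had promoter sites in both lists in 5 of 7, overlapping in 4 and apart at H2-Ob, and none at Cd74 and Ciita, and 0 of the sites that overlapped passed 1.5-fold in either direction.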

How the data were processed

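Per the labels and methods, the authors aligned paired reads to mm9 with Bowtie2 version 2.2.5, kept uniquely mapped reads, pooled the 3 WT and the 2 dKO replicates, and ran MACS2 (2.1.1.20160309, paired-end fragments, no control library) once per pool. Pileup, as deposited, is an unscaled fragment signal, and fold enrichment, as deposited, is a ratio to local background. The deposited -log10 p and -log10 q come from the authors' MACS2 test. The headers name 2 inputs per list, 1 of which appears to be a sorted copy of the other, and give 167847468 WT and 124485926 dKO fragments before and 83923734 and 62242963 after redundancy filtering.

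Peaks were assigned to genes by summit on the mm9 annotation GENCODE vM1, shared sites overlap by at least 1 bp, and pileup ratios carry 95% exact conditional binomial (Clopper-Pearson) intervals (scipy 1.17.1). Local background was computed as (pileup + 1)/fold enrichment - 1. Promoter starts were matched from RefSeq (GRCm38.p6) to mm9 by exact sequence for 7 of 9 genes. Copies of windows were searched with blastn 2.17.0 at a minimum identity of 90%. The genes named are the 9 members and the fixed pathway and marker lists. Members and lists were chosen with earlier results of these data known. The overlap, ratio and motif steps were tested on simulated data.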

Additional observations from a re-analysis of the deposited data

How the results depend on the processing

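The members gave 22 WT and 19 dKO ChrAcc sites, 6 WT-only and 3 dKO-only. With a fold enrichment of at least 8 these were 9, 9, 1 and 1. The dKO-only count was 1 with q under 1e-10 and 1 within 1 kb of the gene bodies, and within 20 kb the WT count was 35 and the WT-only count 10. Of shared sites, 2 were at least 1.5-fold higher and 2 lower in dKO. With fold enrichment in place of pileup 4 were higher (the H2-K1 promoter, the site 3457 bp upstream of H2-D1, the downstream start of Psmb8 and intron 3 of Tap2) and 0 lower, with a threshold of 2-fold 1 and 0, and scaled by the median of shared promoter sites 1 was lower. The log2 ratio at the H2-K1 promoter was 0.70 with fold enrichment. The fewer sites under stricter thresholds follow from the thresholds themselves. The cause of the other changes was not tested. In all, 39 of 52 counts stayed within 1.5 times and 65 of 66 single values within their counting interval, and no called value reversed. This tally is a weak check. Settings that changed only the pairing of sites could not move the WT and dKO counts, and many counting intervals are wide. Uncalled values changed sign 8 times, with the promoter shared by Tap1 and Psmb9 counted under both genes. The percentile shift of that promoter was 18.9, with a counting interval of -23.0 to 55.6, and became -3.56 ranked by pileup. The direction of this shift, which is not near 0, thus depended on the ranking measure. The log2 ratio of that promoter, 0.05, became -0.08 scaled by fragments kept. The shift of the Tap2 promoter was 0.04 and became -6.86 ranked by -log10 p, -12.3 by pileup and -2.30 in the lists as deposited, and its log2 ratio of -0.10 became 0.10 with fold enrichment. Leaving out the H2-K1 window and extending the Nlrc5 window were chosen after seeing the data. No paired analysis was possible because the replicates of each genotype were pooled before peaks were called, and no replicate could be left out for the same reason. Depth limits sites near 21 fragments in WT and 16 in dKO, and a missing site means one below the criteria, not closed chromatin.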
